A study of Mus musculus with 4 samples.

Results

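The genes described here are 10 genes of interleukin 1 (IL-1) and interleukin 6 (IL-6) signaling in the mouse heart: the ligands Il1b and Il6, the receptor genes Il1r1, Il1r2, Il6ra, Il6st, Osmr and Lifr, the transcription factor gene Stat3 and the feedback inhibitor gene Socs3. They were found by symbol, and each symbol matched 1 of the 23282 genes in the heart data. All 10 are protein-coding, and their positions below are from GENCODE M21 on GRCm38, the assembly of mm10. The heart mRNA-seq data comprised 4 libraries from male CDF1 mice with an age label of post natal day 28, which is the age at purchase. They stood for the normal control E(−)T(−), which neither exercised nor received tumor cells, the normal exercise group E(+)T(−), the cancer control E(−)T(+), and the cancer exercise group E(+)T(+). Exercise was high-intensity running on a motorized treadmill, and cancer was induced by injecting CT26 cells, a mouse colorectal carcinoma line, into the tail vein. Each group held 10 mice and gave 1 library, and the labels do not say whether a library came from 1 mouse or from a pool. The study describes a representative mouse of each group for the gastrocnemius muscle and a like analysis for the heart. Groups thus had no replicates, no difference below has a replicate check, and no p-value is given.

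IL-1β acts through the receptor encoded by Il1r1, which recruits MyD88 and IRAK kinases and activates NF-κB, whereas the product of Il1r2 binds the same ligand without passing on a signal. IL-6 binds the receptor encoded by Il6ra and signals through gp130, the product of Il6st, a subunit shared with the receptors for oncostatin M (Osmr) and leukemia inhibitory factor (Lifr). Bound gp130 activates JAK kinases, which phosphorylate STAT3, and STAT3 induces Socs3, whose product blocks gp130 signaling in a feedback loop.

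Depth ran from 6595441 to 11545875 recovered reads per library, and the globin genes took 7.86% to 8.76% of the reads in 3 libraries and 37.3% in cancer exercise. All 8 cardiomyocyte markers were detected in every library, and their summed normalized reads ran from 331283 to 392455. Reads came from the 3′ end of transcripts, and values are not scaled to length. A fold change is the difference of 2 deposited values, each log2(normalized read count + 1), and low counts make it too small. A gene was called higher or lower when it changed by at least 2-fold and reached 4 normalized reads in either library. Intervals in brackets are 95% Clopper-Pearson intervals on the log2 scale. They cover counting error only and leave out differences between mice. PCR copies are not independent molecules, so the intervals can be too narrow even for counting error. In these bulk samples, fewer cells of a type and less RNA per cell cannot be told apart.

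Promoter sequences are shown for 3 of the genes, the 2 ligands and the gene called higher in every comparison, because each holds 1 of the 3 motifs searched, all linked by textbook knowledge to these pathways or to inducible genes. They are the 250 bases before the start site in RefSeq's promoter table for GRCm38.p6, written 5′ to 3′ on the strand of the gene, with the motif in capitals. The Il1b sequence lies at chr2:129371140-129371389 on the minus strand, and its TATAAA begins 31 bases before the start. The Il6 sequence lies at chr5:30012864-30013113 on the plus strand, and its match to the κB consensus, the motif bound by NF-κB, begins 44 bases before the start. The Socs3 sequence lies at chr11:117969367-117969616 on the minus strand, and its TTCNNNGAA, the motif bound by STAT factors, begins 154 bases before the start in that table. This stretch lies inside the GENCODE span of Socs3, chr11:117966079-117970047. The start used is 180 bases upstream of the nearest GENCODE start of a coding transcript, so the distance depends on the annotation. In the windows searched below, the starts used for Il1r2 and Osmr are 108 and 656 bases from such a start.
Il1b: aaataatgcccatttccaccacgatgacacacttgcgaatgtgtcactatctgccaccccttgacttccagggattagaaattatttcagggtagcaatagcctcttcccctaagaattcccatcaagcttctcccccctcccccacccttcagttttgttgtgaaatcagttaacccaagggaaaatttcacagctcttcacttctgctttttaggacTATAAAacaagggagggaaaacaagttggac
Il6: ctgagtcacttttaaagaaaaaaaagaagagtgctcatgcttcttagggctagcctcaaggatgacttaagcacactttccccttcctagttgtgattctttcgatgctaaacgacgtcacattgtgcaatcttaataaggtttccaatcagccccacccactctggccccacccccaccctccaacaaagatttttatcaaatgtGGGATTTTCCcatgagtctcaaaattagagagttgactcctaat
Socs3: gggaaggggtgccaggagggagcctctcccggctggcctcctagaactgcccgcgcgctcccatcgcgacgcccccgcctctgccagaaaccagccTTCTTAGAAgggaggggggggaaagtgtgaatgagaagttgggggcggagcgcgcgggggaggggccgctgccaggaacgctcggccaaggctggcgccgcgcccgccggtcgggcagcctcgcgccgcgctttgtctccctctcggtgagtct
The search read both strands of 300-base windows that reach 50 bases past the start, and the 10 genes had 12 such windows. A TTCNNNGAA was found in 2 of them, those of Socs3 and Il1r2, against 8.30% of the 32851 windows in the table. The κB consensus was also found in 2, in Il6 and in the second window of Il1r1, against 8.46%, and TATAAA in 1 against 13.6%. These matches describe the letters and do not show that a factor binds there.

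**Figure D1:**
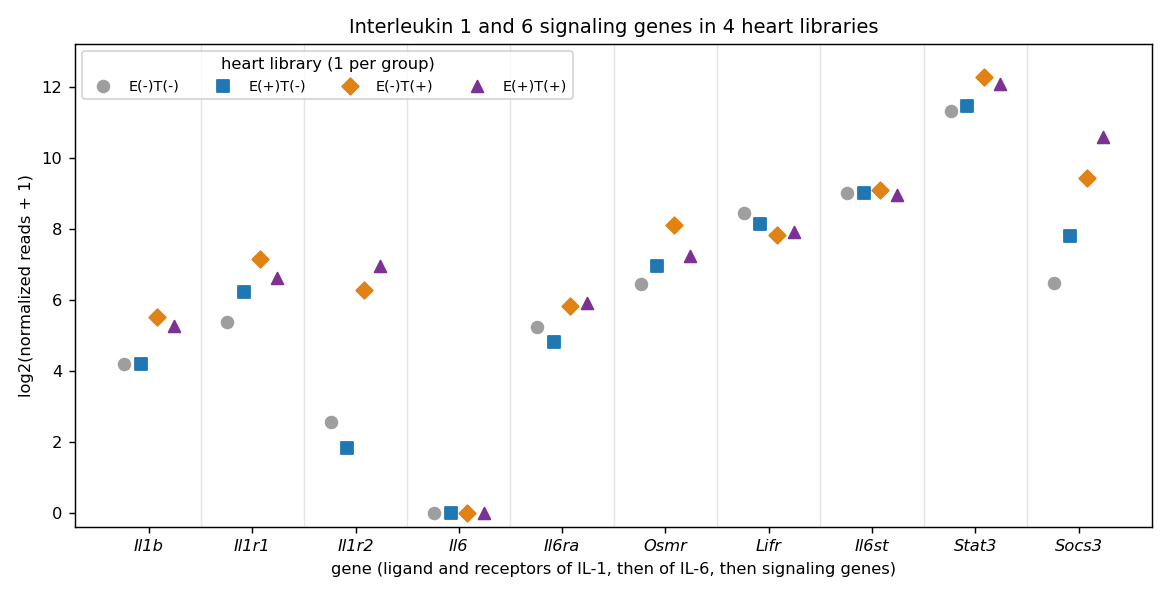
Deposited value, log2(normalized reads + 1), of each of the 10 genes (x axis) in the 4 heart libraries, with 1 point per library and no error bar because a group held 1 library. Il1r2 and Socs3 spanned the widest ranges, 5.13 and 4.11 on the log2 scale, Il6st spanned 0.16 and Il6 was at 0 in every library.

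The clearest differences lay between hearts with and without tumor. Il1b, Il1r2 and Socs3 were called higher with tumor whether or not the mice exercised, Il6st hardly differed between libraries, and with exercise Socs3 alone passed 2-fold. In cancer control vs. normal control, 5 of the 9 genes past the count minimum were called higher (Il1b, Il1r1, Il1r2, Osmr and Socs3) and 0 lower, whereas 14.6% of all 14317 genes past the minimum were called higher and 13.1% lower. Their median log2 fold change was 1.30, against −0.01 for all genes. In cancer exercise vs. normal exercise, 4 of 9 were called higher (Il1b, Il1r2, Il6ra and Socs3) and 0 lower, whereas 12.0% of 14289 genes were called higher and 11.1% lower, and the median was 0.61 against −0.01. The 2 cancer comparisons share no library, and Il1b, Il1r2 and Socs3 were called higher in both, as were 5.42% of the 13696 genes past the minimum in both. The genes described here were chosen with earlier results of these data known, so their excess over all genes is not independent support.

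Fewer of these genes passed 2-fold in the exercise comparisons. In normal exercise vs. normal control, 1 of 9 was called higher, Socs3, and 0 lower, against 5.88% higher and 6.40% lower of 13937 genes, and the median was −0.004 for the 9 and 0.002 for all genes. In cancer exercise vs. cancer control, Socs3 was again the 1 gene called higher and 0 were called lower, against 9.39% higher and 10.0% lower of 14363 genes, with a median of −0.16 against −0.01. A share of 1 in 9 is near these backgrounds. The 2 exercise comparisons share no library either, and 0.896% of the 13390 genes past the minimum in both were called higher in both, Socs3 among them. Every exercise comparison does share its libraries with the cancer comparisons.

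The deposited scaling bears on all comparisons with cancer exercise. Scaled to library size instead, the all-gene median was −0.59 in cancer exercise vs. cancer control, −0.73 in cancer exercise vs. normal exercise and −0.17 in cancer control vs. normal control, and of all genes called, 12.9%, 13.7% and 42.1% were called higher, against 48.4%, 52.0% and 52.7% as deposited. When the scaling left out the 12 genes that each made up more than 1% of a library, these medians were −0.08, −0.19 and −0.17, and 41.3% of the genes called in cancer exercise vs. normal exercise were higher. A value under library size scaling is to be read against this shift.

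**Figure D2:**
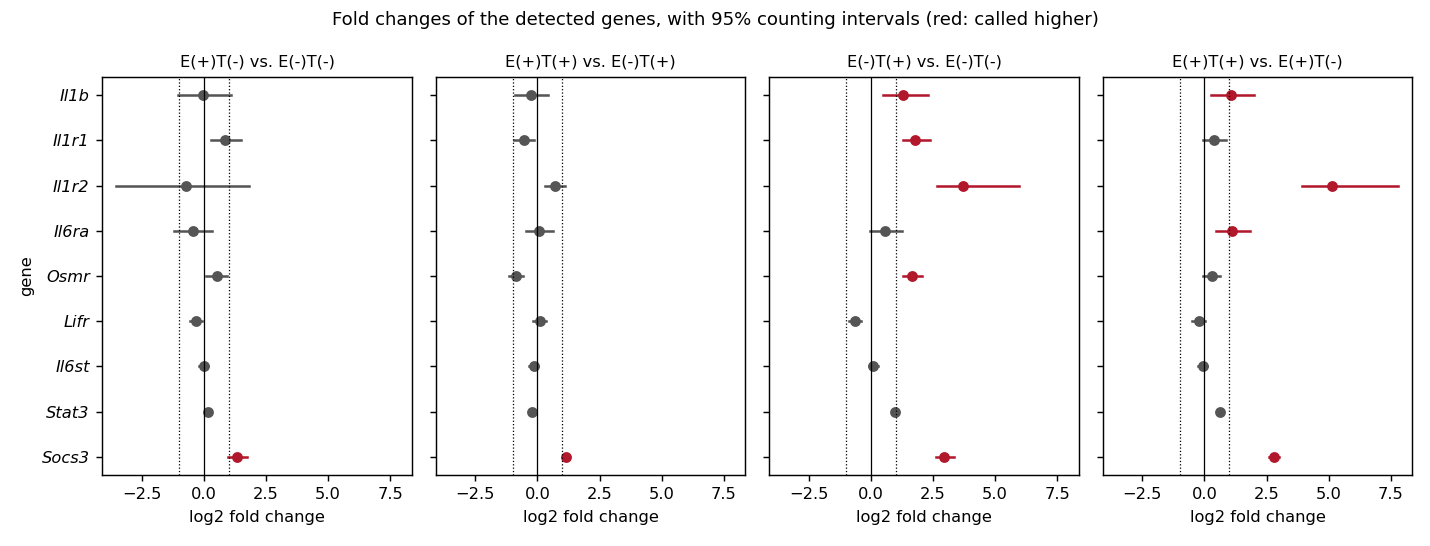
Log2 fold change of the 9 detected genes in each of the 4 comparisons, with lines for 95% counting intervals, dotted lines at a 2-fold change and red for genes called higher. Socs3 lay past the dotted line in all 4 panels, and Il1b and Il1r2 in both cancer comparisons.

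Il1b (chr2:129364570-129371139, minus strand), which encodes the ligand IL-1β, was read at low depth in every library. Its normalized read count was 17.4 in the normal control, 17.1 in normal exercise, 44.3 in the cancer control and 37.1 in cancer exercise, on 15 to 50 reads. Both libraries with tumor were thus higher than both without. Its log2 fold change was 1.30 (0.50 to 2.30) in cancer control vs. normal control, a 2.47-fold difference, and 1.08 (0.26 to 2.01) in cancer exercise vs. normal exercise, which was 0.38 under library size scaling and 0.90 when the 12 genes were left out, neither of them called. With exercise it was −0.02 (−1.06 to 1.08) without tumor and −0.25 (−0.92 to 0.41) with tumor, so no exercise difference was detectable at this depth. An exon of Il1b overlaps Il1bos on the other strand, and whether the counting used strand is not given in the sources used here, so reads of the pair cannot be told apart.

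Il1r1 (chr1:40225080-40317257, plus strand), the gene for the signaling receptor of IL-1, had a normalized read count of 40.3 in the normal control, 73.2 in normal exercise, 140 in the cancer control and 96.2 in cancer exercise. It was lowest in the normal control and highest in the cancer control. It was called higher only in cancer control vs. normal control, with a log2 fold change of 1.78 (1.27 to 2.38), and it was 0.39 (−0.06 to 0.85) in cancer exercise vs. normal exercise. That second value turned to −0.32 under library size scaling, at an all-gene shift of −0.73. With exercise, the gene changed by 0.85 (0.28 to 1.48) without tumor and by −0.54 (−0.94 to −0.16) with tumor, under 2-fold in both and in opposite directions. Under library size scaling the second of these was −1.12, past 2-fold, at an all-gene shift of −0.59.

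Il1r2 (chr1:40074079-40125231, plus strand), the gene for the decoy receptor, changed more than any other of the 10 genes. It had 4 reads in the normal control, 3 in normal exercise, 86 in the cancer control and 113 in cancer exercise, that is normalized read counts of 4.85, 2.55, 76.0 and 123. The gene was near the floor of 3 reads without tumor and well above it in both libraries with tumor. Its log2 fold change was 3.72 (2.64 to 5.96) in cancer control vs. normal control and 5.13 (3.93 to 7.81) in cancer exercise vs. normal exercise, and only 141 and 26 of all genes past the minimum, or 0.985% and 0.182%, had larger changes. With exercise it changed by 0.69 (0.29 to 1.13) with tumor, which was 0.12 under library size scaling. Without tumor, the exercise value was −0.72 (−3.53 to 1.81), an interval that allows a change of 2-fold in either direction.

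The balance of the 2 IL-1 receptor genes does not depend on scaling, because it is taken within a library. Il1r2 made up 10.3% (2.87 to 24.2, Clopper-Pearson) of the Il1r1 and Il1r2 reads in the normal control and 3.57% (0.74 to 10.1) in normal exercise. It made up 35.1% (29.1 to 41.4) in the cancer control and 56.2% (49.1 to 63.2) in cancer exercise. The decoy thus took a larger share with tumor than without, and the larger of those 2 shares was in the library with exercise, with intervals that did not meet. These shares compare 4 libraries, not 4 groups of mice.

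**Figure D3:**
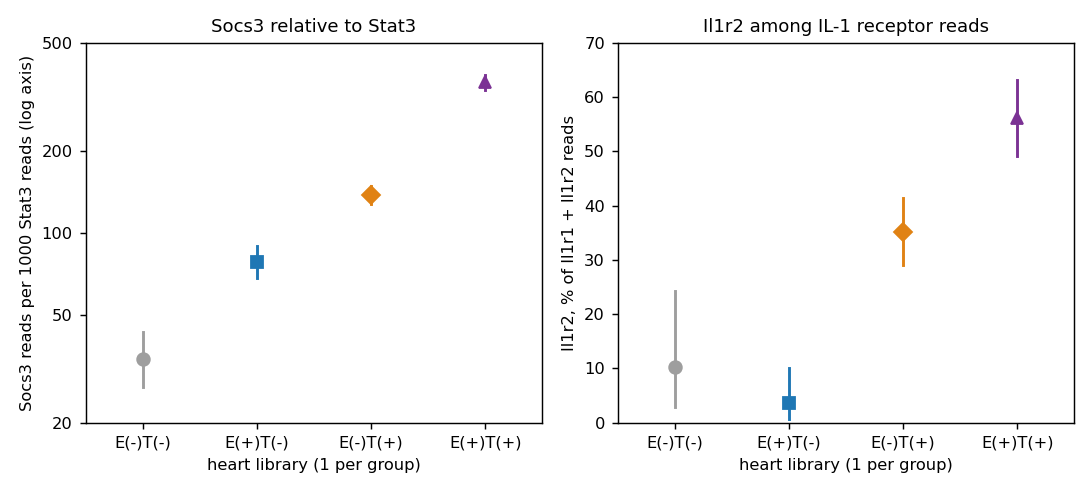
Socs3 reads per 1000 Stat3 reads on a log axis (left) and Il1r2 as a percentage of Il1r1 and Il1r2 reads (right) in each heart library, with 95% counting intervals. Socs3 relative to Stat3 ran from 34.5 in E(−)T(−) to 357 in E(+)T(+), and Il1r2 made up 56.2% of the receptor reads in E(+)T(+).

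Il6 (chr5:30013114-30019981, plus strand), the gene for IL-6 itself, had 0 reads in all 4 libraries. A count of 0 allows up to 3 reads, which is 2.65 to 3.44 normalized reads depending on the library, so Il6 was not detectable at this depth and no fold change is given. Other ligands that signal through gp130 were also sparse. Osm, the gene for oncostatin M, had 1 read in each library without tumor, 10 in the cancer control and 12 in cancer exercise, and Lif had 0 to 2 reads. Il11 had 0 to 6 reads.

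Il6ra (chr3:89864059-89913196, minus strand), the gene for the IL-6-binding receptor chain, had a normalized read count of 36.8 in the normal control, 27.0 in normal exercise, 55.7 in the cancer control and 59.0 in cancer exercise. Both libraries with tumor were higher than both without. Its log2 fold change was 1.10 (0.45 to 1.82) in cancer exercise vs. normal exercise, just past 2-fold, and 0.59 (−0.04 to 1.26) in cancer control vs. normal control. The first was 0.92 when the 12 genes were left out and 0.39 under library size scaling, neither of them called. With exercise it was −0.43 (−1.20 to 0.33) without tumor and 0.08 (−0.46 to 0.64) with tumor, the latter −0.49 under library size scaling. Its exons overlap Gm42809 on the other strand.

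Osmr (chr15:6813577-6874969, minus strand), the gene for the oncostatin M receptor, followed an order like that of Il1r1. Its normalized read count was 86.2 in the normal control, 123 in normal exercise, 272 in the cancer control and 150 in cancer exercise, with the cancer control highest. It was called higher in cancer control vs. normal control, with a log2 fold change of 1.65 (1.29 to 2.04), and was 0.28 (−0.07 to 0.64) in cancer exercise vs. normal exercise, which turned to −0.43 under library size scaling. With exercise it changed by 0.51 (0.10 to 0.94) without tumor and by −0.86 (−1.16 to −0.56) with tumor, and the second was −1.44 under library size scaling.

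Lifr (chr15:7090614-7197489, plus strand), the gene for the leukemia inhibitory factor receptor, went the other way with cancer. Its normalized read count was 348 in the normal control, 281 in normal exercise, 224 in the cancer control and 239 in cancer exercise. The log2 fold change was −0.64 (−0.88 to −0.39) in cancer control vs. normal control and −0.24 (−0.50 to 0.02) in cancer exercise vs. normal exercise, so it was never called. With exercise it was −0.31 (−0.54 to −0.08) without tumor and 0.09 (−0.18 to 0.36) with tumor, the latter −0.49 under library size scaling.

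Il6st (chr13:112464070-112510086, plus strand), the gene for the shared subunit gp130, was the steadiest of the detected genes. Its normalized read count was 512 in the normal control, 511 in normal exercise, 544 in the cancer control and 489 in cancer exercise, on 447 to 617 reads. All 4 log2 fold changes lay between −0.16 and 0.09, and every interval included 0. The interval that reached farthest from 0 ran from −0.33 to 0.02, in cancer exercise vs. cancer control. Under library size scaling the value of 0.09, in cancer control vs. normal control, was −0.07, and those of cancer exercise were −0.74 against the cancer control and −0.78 against normal exercise, near the all-gene shifts of −0.59 and −0.73.

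Osmr shifted against the other receptor subunits within a library, a measure that scaling does not touch. There were 168 Osmr reads per 1000 Il6st reads in the normal control (130 to 215), 241 in normal exercise (198 to 291), 499 in the cancer control (434 to 573) and 307 in cancer exercise (251 to 372). Against Lifr, the other partner of gp130, Osmr had 247 reads per 1000 in the normal control, 437 in normal exercise, 1213 in the cancer control and 628 in cancer exercise. Osmr reads outnumbered Lifr reads in the cancer control alone, where the interval ran from 1024 to 1437.

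Stat3 (chr11:100885098-100939540, minus strand), the gene for the transcription factor downstream of gp130, was the most deeply read of the 10, with 2206 to 5638 reads. Its normalized read count was 2529 in the normal control, 2810 in normal exercise, 4972 in the cancer control and 4281 in cancer exercise. Both libraries with tumor were higher than both without, but by less than the 2-fold that a call needs. The log2 fold change was 0.98 (0.90 to 1.05) in cancer control vs. normal control, a 1.97-fold difference, and 0.61 (0.54 to 0.68) in cancer exercise vs. normal exercise, which turned to −0.11 under library size scaling. With exercise it was 0.15 (0.07 to 0.23) without tumor and −0.22 (−0.28 to −0.16) with tumor, the latter −0.80 under library size scaling and −0.28 when the 12 genes were left out. Exons of Stat3 overlap Stat5a on the other strand, and Stat5a had 73 to 115 reads.

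Socs3 (chr11:117966079-117970047, minus strand), the gene for the inhibitor that STAT3 induces, was higher with each of exercise and cancer and highest with both. Its normalized read count was 87.4 in the normal control, 220 in normal exercise, 687 in the cancer control and 1529 in cancer exercise. The log2 fold change was 2.96 (2.64 to 3.34) in cancer control vs. normal control, a 7.78-fold rise, and 2.79 (2.60 to 3.001) in cancer exercise vs. normal exercise, a 6.94-fold rise. With exercise it was 1.32 (0.96 to 1.73) without tumor, or 2.49-fold, and 1.15 (1.03 to 1.28) with tumor, or 2.22-fold. The last of these was 0.57 under library size scaling and lost its call, at a shift of all genes of −0.59. Of all genes past the minimum, 3.84% had a larger change in normal exercise vs. normal control, 7.60% in cancer exercise vs. cancer control, 2.17% in cancer control vs. normal control and 2.57% in cancer exercise vs. normal exercise.

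Within each library, Socs3 moved apart from the genes upstream of it. There were 34.5 Socs3 reads per 1000 Stat3 reads in the normal control (27.0 to 43.3), 78.2 in normal exercise (68.4 to 89.1), 138 in the cancer control (128 to 149) and 357 in cancer exercise (336 to 380). None of these 4 intervals overlapped, and the order was that of the Socs3 levels. Per 1000 Il6st reads, Socs3 had 170, 430, 1263 and 3128 reads in the same order of libraries.

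The rest of the pathway was described by 6 lists, which leave out the 10 genes. These lists were chosen with earlier results of these data known, so an excess over all genes is not independent support. Their counts are read against the shares of all genes called, 14.6% higher and 13.1% lower in cancer control vs. normal control, 12.0% and 11.1% in cancer exercise vs. normal exercise, 5.88% and 6.40% in normal exercise vs. normal control, and 9.39% and 10.0% in cancer exercise vs. cancer control. Those shares are of genes past the count minimum. The number past it is given for lists where more than 1 gene fell short in a comparison. Of the 17 textbook STAT3 targets, 14 were called higher and 0 lower in cancer control vs. normal control, with a median log2 fold change of 2.14 against −0.02 for all 13731 genes averaging 4 or more normalized reads, and 12 higher and 1 lower in cancer exercise vs. normal exercise, with a median of 1.62 against −0.02. The 12 became 7 under library size scaling. With exercise, 3 were called higher and 1 lower without tumor (median 0.31), and 0 higher and 5 lower with tumor (median −0.27). Myc had 0 reads in the normal control, and with its fold change set against the floor of 3 reads the medians against that library were 2.05 with cancer and 0.26 with exercise.

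The STAT3 targets that changed most were acute-phase and matrix genes. Saa3, an acute-phase apolipoprotein gene, had 7 reads in the normal control, 3 in normal exercise, 2939 in the cancer control and 518 in cancer exercise. Serpina3n, a protease inhibitor gene, had 73, 149, 8398 and 2267 reads in the same order, and Lcn2, the gene for an iron-sequestering protein, had 14, 17, 1123 and 367. Timp1, an inhibitor of matrix metalloproteinases, had 18, 57, 922 and 150. All 4 were highest in the cancer control and were called lower in cancer exercise vs. cancer control, with log2 fold changes of −2.19, −1.58, −1.30 and −2.30. Lbp, the gene for a lipopolysaccharide-binding protein, was also called lower there, at −1.22. Hp, another acute-phase gene of the list, went the other way. It had 47, 63, 571 and 922 reads in the same order of libraries and was at 0.999 in that comparison, just short of a call. Socs3 was called higher in cancer exercise vs. cancer control. Junb, an AP-1 subunit gene, had the order of Socs3, with 163, 468, 1063 and 1401 reads, and its exercise changes were 1.17 (0.92 to 1.45) without tumor and 0.71 (0.59 to 0.83) with tumor.

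Of the 20 textbook targets of IL-1 and NF-κB, 11 were called higher and 2 lower in cancer control vs. normal control, with a median of 1.46, and 11 higher and 3 lower in cancer exercise vs. normal exercise, with a median of 1.52. The second pair of counts was 7 higher and 4 lower under library size scaling. With exercise, 2 were called higher and 3 lower without tumor (median 0.11), and 6 higher and 2 lower with tumor (median −0.16), which turned to 3 higher and 7 lower under library size scaling. Past the count minimum were 18 and 19 of the 20 in the cancer comparisons and 19 and 17 in the exercise comparisons. The neutrophil chemokine genes were highest in cancer exercise. Cxcl1 had 12 reads in the normal control, 17 in normal exercise, 49 in the cancer control and 135 in cancer exercise, and Cxcl2 had 4, 0, 13 and 265, a log2 fold change of 4.57 (3.86 to 5.59) in cancer exercise vs. cancer control. Cxcl5 had 7, 1, 20 and 34 reads. Nfkbiz, the gene for an inducible IκB protein, was called higher in all 4 comparisons, with 14, 60, 53 and 102 reads.

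Other genes of this list followed the cancer control. Mmp3, a matrix metalloproteinase gene, had 29, 98, 1173 and 311 reads in the same order and its exercise changes were 1.37 (0.80 to 2.07) without tumor and −1.60 (−1.79 to −1.42) with tumor. Selp, the gene for P-selectin, had 3, 7, 93 and 41 reads. Sele, the gene for E-selectin, had 0 to 6 reads, too few to order the libraries.

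Of the 16 genes of the IL-1 family list, 12 were in the data. Of these 12, 7 passed the count minimum in normal exercise vs. normal control and 9 in each other comparison. Among them, 4 were called higher and 0 lower in cancer control vs. normal control, 3 higher and 0 lower in cancer exercise vs. normal exercise, 1 higher and 0 lower in normal exercise vs. normal control, and 0 higher and 3 lower in cancer exercise vs. cancer control, with medians of 0.36, 0.15, −0.02 and −0.24. Under library size scaling, 3 were called lower in cancer exercise vs. normal exercise in place of 0, and at a count minimum of 16, 1 was called higher there in place of 3. Il1rn, the gene for the receptor antagonist of IL-1, had 0 reads in both libraries without tumor, 52 in the cancer control and 6 in cancer exercise. Its log2 fold change was at least 3.74 in cancer control vs. normal control, against a floor of 3 reads per library, and −2.64 (−4.32 to −1.59) in cancer exercise vs. cancer control. Il1r2, which also restrains IL-1, was at 0.69 in that comparison. Il33, the gene for another IL-1 family cytokine, had 94, 72, 732 and 219 reads from the normal control, normal exercise, the cancer control and cancer exercise, and Il1rl1, the gene for its receptor, had 13, 25, 41 and 23.

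Il18rap, a subunit of the IL-18 receptor, had 0, 0, 27 and 8 reads, and Il18r1, the other subunit, had 17, 55, 29 and 23. The accessory chain gene Il1rap, which Il1r1 needs to signal, had 16, 32, 24 and 20 reads and was not called in any comparison. Il1a, the gene for the other IL-1 ligand, had 0 reads in 3 libraries and 2 in cancer exercise.

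The genes that carry the IL-1 signal had list medians near that of all genes. Of 20, 2 were called higher and 1 lower in cancer control vs. normal control, 3 higher and 0 lower in cancer exercise vs. normal exercise, 0 higher and 2 lower in normal exercise vs. normal control, and 1 higher and 0 lower in cancer exercise vs. cancer control, with medians of 0.01, 0.05, −0.05 and 0.04. Under library size scaling, 0 were called higher and 5 lower in cancer exercise vs. normal exercise, and 1 higher and 3 lower in cancer exercise vs. cancer control. Casp1, the gene for the protease that matures IL-1β, had 21, 20, 71 and 35 reads, and Traf6, an adaptor gene, had 51, 74, 154 and 104. Irak3, the gene for an inhibitory kinase of the pathway, had 44, 24, 92 and 61 reads, and Irak4 had 64, 78, 62 and 34. Nlrp3, a sensor of the inflammasome, had 1 to 6 reads, too few to order the libraries.

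Of the 15 other IL-6 family ligands and receptors, 4 had no read in any library. Past the count minimum were 8 in cancer control vs. normal control and 9 in cancer exercise vs. normal exercise. In normal exercise vs. normal control 7 passed it, and in cancer exercise vs. cancer control 8. Called higher were 4 in cancer control vs. normal control (median 1.16, with 2 lower), 2 in cancer exercise vs. normal exercise (median −0.07, 0 lower), 3 in normal exercise vs. normal control (median 0.37, 0 lower) and 1 in cancer exercise vs. cancer control (median 0.28, with 2 lower). Scaled to library size, 4 were called lower in cancer exercise vs. normal exercise in place of 0. Cntf, the gene for ciliary neurotrophic factor, had 2, 4, 28 and 38 reads, and Ctf1, the gene for cardiotrophin-1, had 15, 33, 9 and 14. Il11ra1, the gene for the IL-11 receptor, was read 1100 to 1825 times and was not called in any comparison.

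Among the 22 genes of JAK and STAT signaling and its brakes, 3 were called higher and 1 lower in cancer control vs. normal control, 1 higher and 3 lower in cancer exercise vs. normal exercise, 0 in either direction in normal exercise vs. normal control, and 0 higher and 2 lower in cancer exercise vs. cancer control. The medians were 0.09, −0.17, 0.09 and −0.01, and 3 of 22 is near the share of all genes called higher. Scaled to library size, 0 were called higher and 8 lower in cancer exercise vs. normal exercise, and 4 lower in cancer exercise vs. cancer control. Cish, a relative of Socs3, had 437, 662, 1346 and 1080 reads, and Ptpn2, the gene for a phosphatase that acts on JAKs and STATs, had 69, 95, 238 and 237. Pias3, the gene for a protein that binds STAT3, had 115, 133, 136 and 48 reads. Of these genes, Cish was called higher in cancer control vs. normal control and Ptpn2 in both cancer comparisons, and Pias3 was called lower in cancer exercise against both cancer control and normal exercise.

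**Figure D4:**
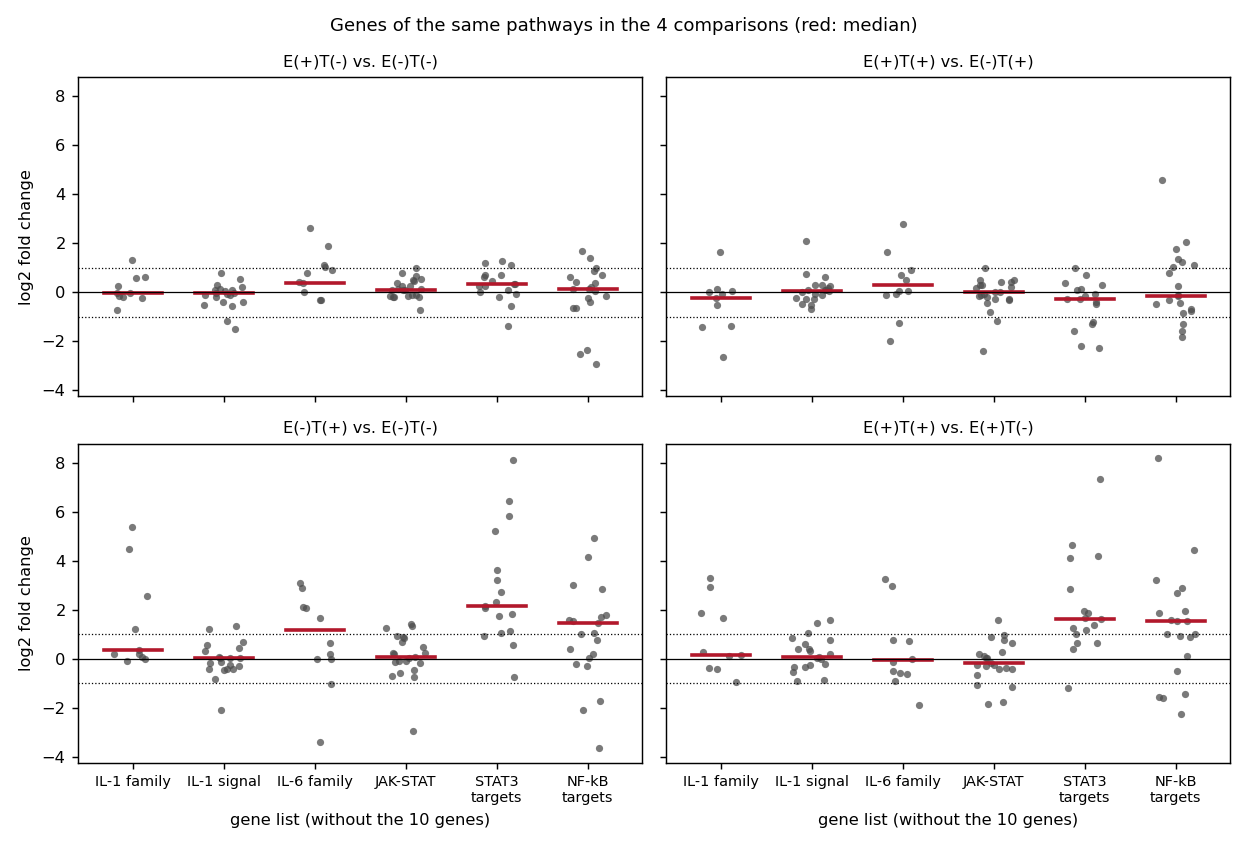
Log2 fold change of each gene of the 6 lists with a read in any library (grey points) and the list median over genes averaging 4 or more normalized reads (red bars), in the 4 comparisons, with dotted lines at a 2-fold change. The medians of the STAT3 and NF-κB target lists stood at 2.14 and 1.46 in E(−)T(+) vs. E(−)T(−), while the other 4 list medians in that panel ran from 0.01 to 1.16, and points against a library with 0 reads depend on the pseudocount.

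Markers of other cell types moved with several of these genes. The summed normalized reads of the neutrophil markers were 124 in the normal control, 87 in normal exercise, 3129 in the cancer control and 5987 in cancer exercise, with 7 of the 8 markers in the data, Mmp8 at 0 in both libraries without tumor and Camp at 0 in the normal control. All 7 had higher values in both libraries with tumor than in both without. Csf3r, however, had 2, 4, 5 and 7 reads, too few to order the libraries. Il1r2, which neutrophils express, was low and high in the same libraries. S100a8 alone made up 37.0% to 46.3% of the sum, and S100a9 had 54, 40, 1674 and 2329 reads in the same order of libraries. Il1b was also higher in both libraries with tumor. In cancer control vs. normal control it changed by 1.30 on the log2 scale, between Csf3r at 0.67 and Cxcr2 at 1.65. Retnlg, S100a8 and S100a9 changed by 3.91 to 4.82 there, and Mmp8 and Camp rose from 0 reads. Il1b had 44.3 normalized reads in the cancer control and 37.1 in cancer exercise. That is a log2 fold change of −0.25 (−0.92 to 0.41), so the order of these 2 libraries is open. The part of neutrophils in these differences was not tested.

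The fibroblast markers summed to 25460, 30299, 55112 and 32125 normalized reads and those of macrophages or monocytes to 1996, 2379, 3360 and 2111, in the same order of libraries, with all 7 and all 8 markers detected throughout. Both sums, like Il1r1 and Osmr, were highest in the cancer control and lowest in the normal control, but most single markers were not. Of the 7 fibroblast markers, 6 were highest in the cancer control, and only Dcn, which made up 73.4% to 91.5% of the sum, was also lowest in the normal control. Col1a1, with 522, 1361, 2907 and 275 reads, and Col3a1, with 1049, 2411, 4941 and 402, were lowest in cancer exercise. Of the 8 macrophage or monocyte markers, 3 were highest in the cancer control, 0 had the whole order, and Cd14 was highest in cancer exercise. The part of these cells in the Il1r1 and Osmr differences was not tested. Endothelial markers summed to 26504, 20058, 17604 and 24932. This sum was mostly Fabp4, at 74.4% to 76.4%. Lifr was likewise highest in the normal control and lowest in the cancer control, as were 4 of the 7 endothelial markers (Cdh5, Kdr, Tek and Fabp4), whereas Pecam1 and Emcn were higher in both libraries with tumor than in both without, and the part of endothelial cells in this was not tested. Erythroid markers summed to 508589 to 526738 in 3 libraries and to 3593918 in cancer exercise, and hepatocyte markers to 26, 25, 183 and 303. Of the remaining lists, lymphocyte markers summed to 60, 39, 19 and 42, adipocyte markers to 2470, 611, 438 and 2665, skeletal muscle markers to 8324, 8585, 6224 and 9268, lung epithelium markers to 616, 167, 557 and 1856, and epithelial markers that tumor cells may carry to 127, 81, 191 and 161, with Cdx2 at 0 throughout. The share of these cells in any value above was not tested.

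**Figure D5:**
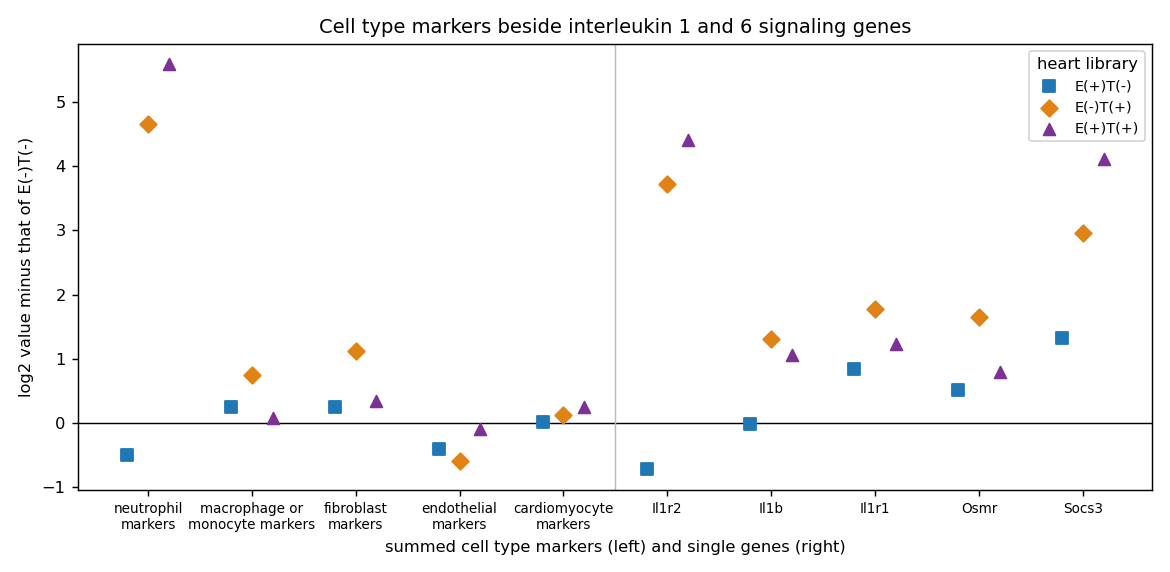
Log2 of the summed normalized reads of cell type markers (left) and deposited log2 values of 5 genes (right), each minus its value in E(−)T(−), for the other 3 libraries. Neutrophil markers and Il1r2 were far above 0 in both libraries with tumor, and the fibroblast markers, Il1r1 and Osmr were each highest in E(−)T(+). In E(+)T(−) the points of the neutrophil markers and Il1r2 lay below 0, but that of Il1r2 rests on 3 reads against 4, so its direction is open.

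The genes with the most similar pattern were sought among 11624 genes by the distance between the 4 log2 values, each centred on its own mean. Nearest to Il1r2 were Gm5483, at a distance of 0.49 with 2, 1, 58 and 49 reads, and the neutrophil marker Retnlg, at 0.57 with 9, 7, 197 and 368 reads. Nearest to Il1r1 were C1qb, the gene for a complement component, at 0.09, and Gem at 0.15. Nearest to Osmr were Tyrobp, the gene for an adaptor of myeloid receptors, at 0.11, and Dok1 at 0.11. A pattern over 4 libraries is easily matched: 164 genes lay within 0.5 of Il1r1 and 307 within 0.5 of Osmr. Socs3 and Il1r2 had 1 such gene each.

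The nearest to Socs3 was Cdca8, a mitotic gene, at 0.26 with 4, 13, 39 and 84 reads, and the next was Lrrc52 at 0.56 with 4, 15, 31 and 74 reads. For Stat3, E4f1 and Rpl37 each lay at 0.03, and 1402 genes lay within 0.5. Rtf1 at 0.03 and Sys1 at 0.04 were nearest to Il6st, with 4243 genes within 0.5, and Kbtbd11 at 0.03 and Zmym6 at 0.04 were nearest to Lifr, with 2731. The patterns of Il6st and Lifr were thus common ones.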

How the data were processed

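Heart RNA was made into QuantSeq 3′ mRNA-seq libraries. Per the labels and methods, the authors mapped reads to mm10 with Bowtie2, took counts per gene from Bedtools coverage and applied edgeR's quantile normalization (versions are not given in the sources used here). The deposited values are the log2 of the normalized counts, with 1 value for each gene in each library. Raw counts were not analysed here.

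From the deposited values, whole reads were recovered under a pseudocount of 1, with the libraries' relative sizes and a shared dispersion of 0.149 as the fitted terms. Of 25460 values between 5 and 99 reads, 100% came within 0.1 of a whole number, and the returned log2 values differed from those deposited by at most 0.00073. Tested on simulated data for 16831 genes, 97.7% of read numbers were recovered exactly, and 100% of those under 1000 reads. The totals were 6595441 reads for the normal control, 8477093 for normal exercise, 9532960 for the cancer control and 11545875 for cancer exercise.

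The members and lists were chosen with earlier results of these data known. Genes named are the 10 members. From each list, up to 4 genes that averaged 16 or more normalized reads are named by the size of their largest fold change, as is any gene called in at least 3 comparisons. Some genes this rule selects are not reported here. For each member that reached 100 normalized reads, the 2 nearest genes averaging 16 or more are named. Osm, Lif, Il11, Il1a, Myc, Hp and Stat5a were named outside this rule, after their values were seen. Marker sums are reads divided by relative library sizes. Gene positions and overlaps are from GENCODE M21 (GRCm38, the assembly of mm10). Alternatives covered scaling, count minimum, fold threshold, pseudocount, depth and the quantile adjustment. Within-library ratios, and the comparisons without cancer exercise, were added after seeing the data. Computations ran in Python 3.11.15 (numpy 2.4.6; scipy 1.17.1), with tables read by pandas 2.3.3 and figures drawn by matplotlib 3.10.9.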

Additional observations from a re-analysis of the deposited data

Results flagged for a closer look

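The effect of exercise had opposite directions without and with tumor for 3 of the 10 genes, judged by counting intervals on opposite sides of 0. The share of all genes that meet this rule was not taken, so the count of 3 has no background beside it. Such intervals leave out differences between mice, and a deeply read gene such as Stat3 meets the rule at a small change. The changes with tumor rest on the cancer exercise library, where library size scaling moved the all-gene median to −0.59. Il1r1 changed by 0.85 in normal exercise vs. normal control and by −0.54 in cancer exercise vs. cancer control on the log2 scale. Osmr changed by 0.51 and −0.86, and Stat3 by 0.15 and −0.22. The difference between the 2 effects was −1.39 for Il1r1, −1.36 for Osmr and −0.37 for Stat3, and it was not tested, because each effect rests on 1 library against 1. All 6 changes were under 2-fold. The fibroblast and the macrophage or monocyte marker sums were also higher in normal exercise than in the normal control and lower in cancer exercise than in the cancer control, as were 4 of the 7 and 4 of the 8 single markers, and their part in these differences was not tested.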

How the results depend on the processing

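Under library size scaling, 0 of the 10 genes were called higher and 2 lower (Il1r1 and Osmr) in cancer exercise vs. cancer control, in place of 1 and 0, and 2 were called higher in cancer exercise vs. normal exercise, in place of 4. The second count was also 2 when scaling left out genes holding over 1% of a library. At a fold of at least 1.5, 2 genes were called higher and 1 lower in each exercise comparison, and 1 was called lower in cancer control vs. normal control. Of 180 fold changes of the 10 genes under alternatives, 161 stayed within the counting interval and 19 did not, 8 took the other sign, 6 of these under library size scaling, and no called change was reversed. The other 2 sign changes were both of Il6st, at −0.07 with genes over 1% left out in cancer control vs. normal control and at 0.01 after subsampling in cancer exercise vs. normal exercise. Of 144 list medians, 141 moved by less than 1 SD over the list's genes, and 15 took the other sign. Of 384 list counts, 313 stayed within 1.5 times. Over all comparisons, 6 of the 10 genes were called higher in at least 1, and 5 when comparisons with cancer exercise were left out. The number of reads limits Il6, Il1b and, without tumor, Il1r2. No paired analysis was possible because each group held 1 library, and for the same reason no library could be left out within a group.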
